A study of Mus musculus with 15 samples.

Results

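Glycosyltransferases that build and cap mucin-type O-glycans and N-glycans were followed in mouse biliary epithelial cells in which Klf5, a Krüppel-like transcription factor gene, was deleted. The members were the rows of both tables whose symbol starts with Galnt, Gcnt, Mgat, B3gnt, B3galt, B4galt, St3gal, St6gal, St8sia or Fut followed by a family number, St6gal with any ending. They number 81 of 24421 gene symbols. Of these rows, Fut4-ps1 is a transcribed processed pseudogene and St8sia3os an antisense transcript in GENCODE M21, and the other 79 are protein-coding.

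The cells come from a line established from the bile ducts of adult C57BL/6 mice with the genotype ITR-CreERT2;Klf5flox/flox. In such cells 4-OH Tamoxifen activates the CreERT2 recombinase, and the EtOH control received the solvent. The 12 h groups hold 3 libraries with ethanol and 4 with tamoxifen and the 24 h groups 4 and 4. No ethanol library numbered 2 is listed among the 12 h samples. Every group carries the recombinase and the floxed alleles, so effects of the drug, of recombinase activity and of Klf5 loss cannot be told apart in this contrast. The sources differ on whether the 3D cultures or structures in an animal were sampled, the series' title naming the former and its design text the latter. The labels call it an established line without saying whether it is 1 clone or whether replicates were separate cultures, so the spread behind each p-value may be technical.

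Glycan chains on secreted and membrane proteins are built in the Golgi by enzymes that each add 1 sugar. Mucin-type O-glycans start when a Galnt enzyme puts N-acetylgalactosamine on serine or threonine, after which Gcnt enzymes make branches. N-glycans are trimmed in the Golgi and then branched by Mgat enzymes. Galactosyltransferases and B3gnt enzymes extend both kinds of chain, and sialyl- and fucosyltransferases cap or decorate them. Bile duct cells carry a dense glycan coat on the surface that faces bile. Some members act elsewhere, such as B4galt7 and B3galt6 on the linker of proteoglycans, and B4galt5, B4galt6 and St3gal5 on glycolipids.

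The files hold the mean normalised count over the libraries of a time, the log2 fold of tamoxifen over ethanol and its standard error (SE), and no value per library. No per-library value, spread or overlap of groups can therefore be given for a member. Summed over genes, the mean normalised counts of the authors' deposited tables come to 13.9 M at 12 h and 11.8 M at 24 h. Klf5 stood at 40.9% of the ethanol level at 12 h and at 30.4% at 24 h in the authors' deposited tables. Of the 10 biliary markers, 0 were listed at 0 at either time, and their summed level went from 151262 normalised counts in ethanol to 144287 in tamoxifen at 12 h and from 58923 to 62347 at 24 h. Krt7 was called lower at 12 h, and Krt19 and Tspan8 lower at 24 h; their part in the results below was not tested. The highest mean in the goblet and mucous list was 3.59 normalised counts, in the endothelial list 1.46, in the fibroblast list 29.6 and in the immune list 76.4, and at 12 h 4 of 8, 4 of 6, 7 of 8 and 2 of 7 genes of these lists were at 0. In the hepatocyte list Hnf4a reached 7584 normalised counts, Apoa1 1291 and Ttr 685 at 12 h, and the summed level of the list was 9109 in ethanol and 9945 in tamoxifen at 12 h, and 4668 and 5087 at 24 h. No marker in these 5 other lists was called at either time.

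The glycosyltransferase genes ranged from well expressed to silent. A mean of at least 50 normalised counts was reached by 36 members at 12 h (44.4% of members, against 42.3% of all symbols) and by 36 at 24 h (44.4% against 40.9%). At both times 35 members reached it. Another 17 members were listed at 0 at both times, and 23 had a larger mean above 0 but under 10, 16 of them above 0 at both times and 7 listed at 0 at 1 time. The remaining 4 of the members lay between these ranges, beside 37 that reached 50 at either time. Counting 3 reads in all would give a mean of about 0.429 at 12 h and 0.375 at 24 h, so a member at 0 could still have a mean up to these levels. These limits cover counting error only, since reads that carry no molecular identifier can be copies of 1 molecule.

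**Figure D1:**
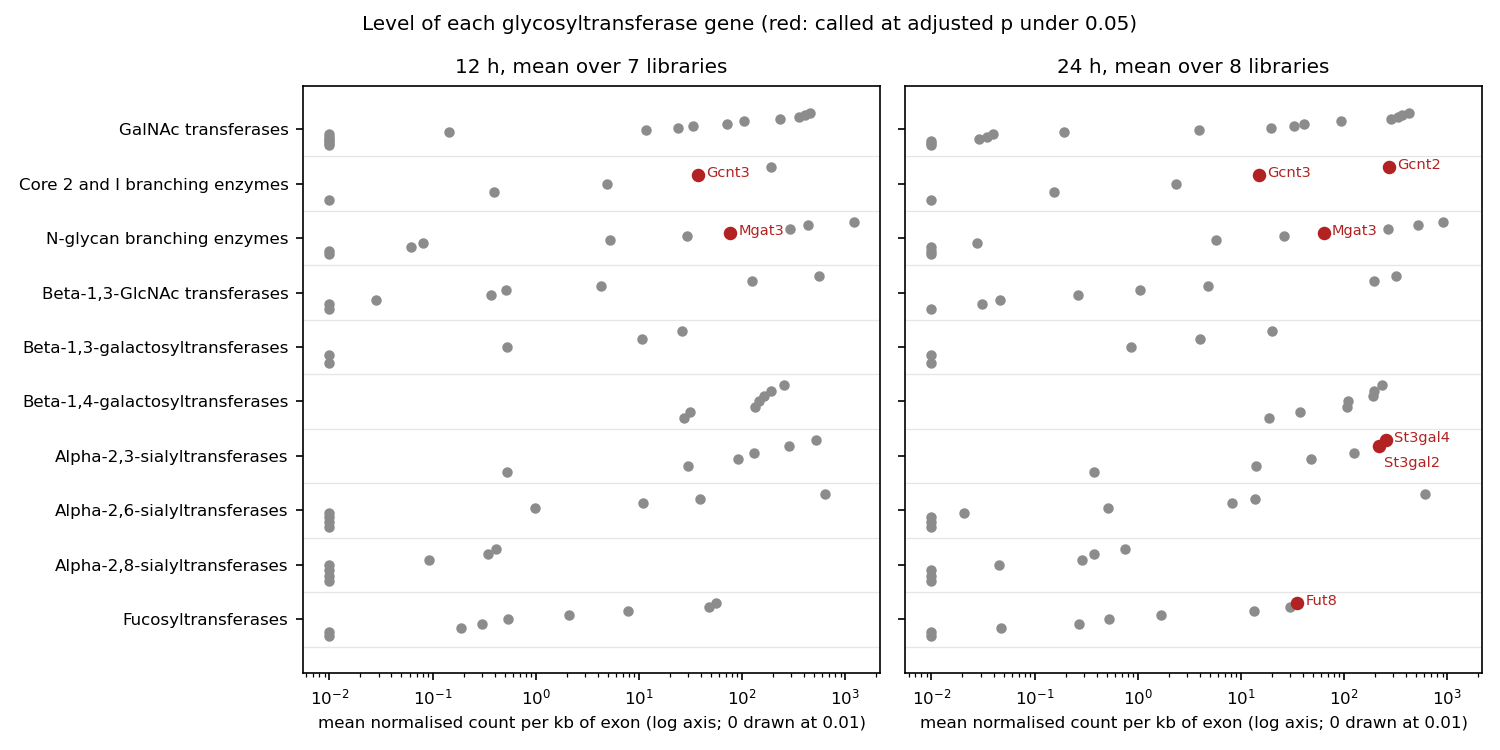
Mean normalised count per kb of exon for each glycosyltransferase gene, by family, at 12 h (left) and 24 h (right), on log axes with genes at 0 drawn at 0.01. Each point is 1 gene and red points were called at an adjusted p under 0.05; Mgat4b is the rightmost point at both times, at 1206 and 903 per kb, and the alpha-2,8-sialyltransferases all lie under 1.

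Levels were compared between genes per kb of exon. Mgat4b, which adds a branch to the alpha-1,3 arm of N-glycans, was the highest member at both times, with 1206 normalised counts per kb at 12 h and 903 at 24 h. St6gal1, which caps N-glycans with alpha-2,6 sialic acid, came next with 634 and 613. Among enzymes that start O-glycans, Galnt1 had 459 and 428 per kb, Galnt2 408 and 334, and Galnt10 357 and 363. The chain-extending gene B3gnt3 stood at 559 and 318 per kb, and the N-glycan branching genes Mgat2 and Mgat1 at 431 and 293 at 12 h and at 516 and 263 at 24 h. St3gal4, an alpha-2,3-sialyltransferase of N-acetyllactosamine chains, had 523 per kb at 12 h. St3gal2 at 12 h (284 per kb) and Galnt3 and Gcnt2 at 24 h (283 and 271 per kb) completed the 10 highest of each time. These levels have no replicate spread, so neighbours in this order are not shown to differ.

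In several families 1 gene held most of the summed level per kb. Of the summed level per kb of the alpha-2,6 family in ethanol, St6gal1 made up 92.5% at 12 h and 96.7% at 24 h. B3gnt3 made up 81.8% and 61.5% of the beta-1,3-GlcNAc family in ethanol, and B3gnt2, which makes polylactosamine, most of the rest with 17.3% and 37.2%. Gcnt2, the I-branching enzyme, made up 73.9% and 92.7% of the Gcnt family in ethanol. In contrast all 7 beta-1,4-galactosyltransferase genes had a mean of at least 50 normalised counts at both times, from B4galt7 at 252 per kb to B4galt2 at 27.5 per kb at 12 h. Genes listed at 0 at both times include Galnt5, Galnt13 and Galnt15, the sialyltransferases St6gal2, St6galnac1 and St6galnac3, and St8sia1, St8sia2 and St8sia3. Fut2, the secretor enzyme that makes the H antigen in epithelia, had means of 1.03 and 0.254 normalised counts in the authors' deposited tables, and B3gnt6, which makes core 3 O-glycans, had 0.866 and 2.49. Gcnt1, the widely expressed core 2 enzyme, had 2.28 and 0.895 in the authors' deposited tables. Reads of a gene and of an overlapping antisense gene cannot be told apart with this kit, which does not mark strand, and exons of B3gnt4 share 93.2% of their bases with Diablo on the opposite strand.

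Both members that passed the test at 12 h fell. They were Gcnt3 and Mgat3, at 35.3% and 36.4% of the ethanol level, and both come from the families of branching enzymes. Of 48 members with an adjusted p, 2 were called (4.17%), against 0.943% of all genes, and both were lower, against 0.728% of all genes called lower in the authors' Wald test. None was called higher, where the share over all genes is 0.215%. At an unadjusted p under 0.05 there were 3 of 58 members with a p (5.17%), against 4.90% of all genes. The members' median log2 fold over those with an adjusted p was -0.02, and that of all genes with one was -0.01.

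Gcnt3 encodes the mucin-type branching enzyme that makes core 2 and core 4 O-glycans. The gene (ENSMUSG00000032226.5) occupies chromosome 9, bases 70031496 to 70038088, reverse strand, in GRCm38. With a mean normalised count of 160 in the authors' deposited table, the fold implies group levels of 254 in ethanol and 89.8 in tamoxifen at 12 h. Its log2 fold at 12 h was -1.50 (SE 0.26) by the authors' deposited table, and the authors' Wald test gave an adjusted p of 5.17e-06. The tamoxifen level was 35.3% of ethanol, with a 95% interval of 24.7% to 50.5%.

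Mgat3 encodes the enzyme that adds the bisecting GlcNAc to N-glycans, a sugar that limits further branching. The gene (ENSMUSG00000042428.6) occupies chromosome 15, bases 80173721 to 80215519, forward strand, in GRCm38. Its mean in the authors' deposited table was 355 normalised counts at 12 h, which implies 557 in ethanol and 203 in tamoxifen. The log2 fold was -1.46 (SE 0.21) by the authors' deposited table, and the authors' Wald test gave an adjusted p of 1.96e-09. The tamoxifen level was 36.4% of ethanol (95% interval 27.5% to 48.2%). The log2 folds of Gcnt3 and Mgat3 differed by -0.05 (SE 0.33, taking the estimates as independent). By size they ranked 9 and 10 among 90 genes called lower with a mean of at least 50. Neither gene shares exon bases with a gene on the opposite strand.

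Of the 34 members with a mean of at least 50 that were not called, log2 folds ran from -0.23 (B4galt2) to 0.36 (Fut8) in the authors' deposited table. The 95% intervals of 28 of these 34 lay within a fold of 1.5 either way, and those of the other 6 reached beyond it. Among all uncalled genes with such a mean, 79.4% had an interval within that fold. Fut8, the core fucose enzyme of N-glycans, had the largest positive value, 0.36 (SE 0.17) by the authors' deposited table, and the authors' Wald test gave an adjusted p of 0.671. Within the Mgat family Mgat1, Mgat2, Mgat4a, Mgat4b and Mgat5 stood at -0.01, -0.07, 0.28, 0.01 and 0.04 in the authors' deposited table, none of them called. Mgat4a had the smallest mean of these, 67.0 normalised counts, and an SE of 0.30 in the authors' deposited table. By family, 8 GalNAc transferase genes ran from -0.03 (Galnt11) to 0.23 (Galnt7), and 5 alpha-2,3-sialyltransferase genes from -0.05 (St3gal1) to 0.22 (St3gal2), in the authors' deposited table. All 7 beta-1,4-galactosyltransferase genes had negative log2 folds, from -0.23 to -0.03 (B4galt5), and all 3 well expressed alpha-2,6-sialyltransferase genes positive ones, from 0.04 (St6galnac4) to 0.16 (St6galnac6), in the authors' deposited table. None of these 10 had an unadjusted p under 0.05.

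**Figure D2:**
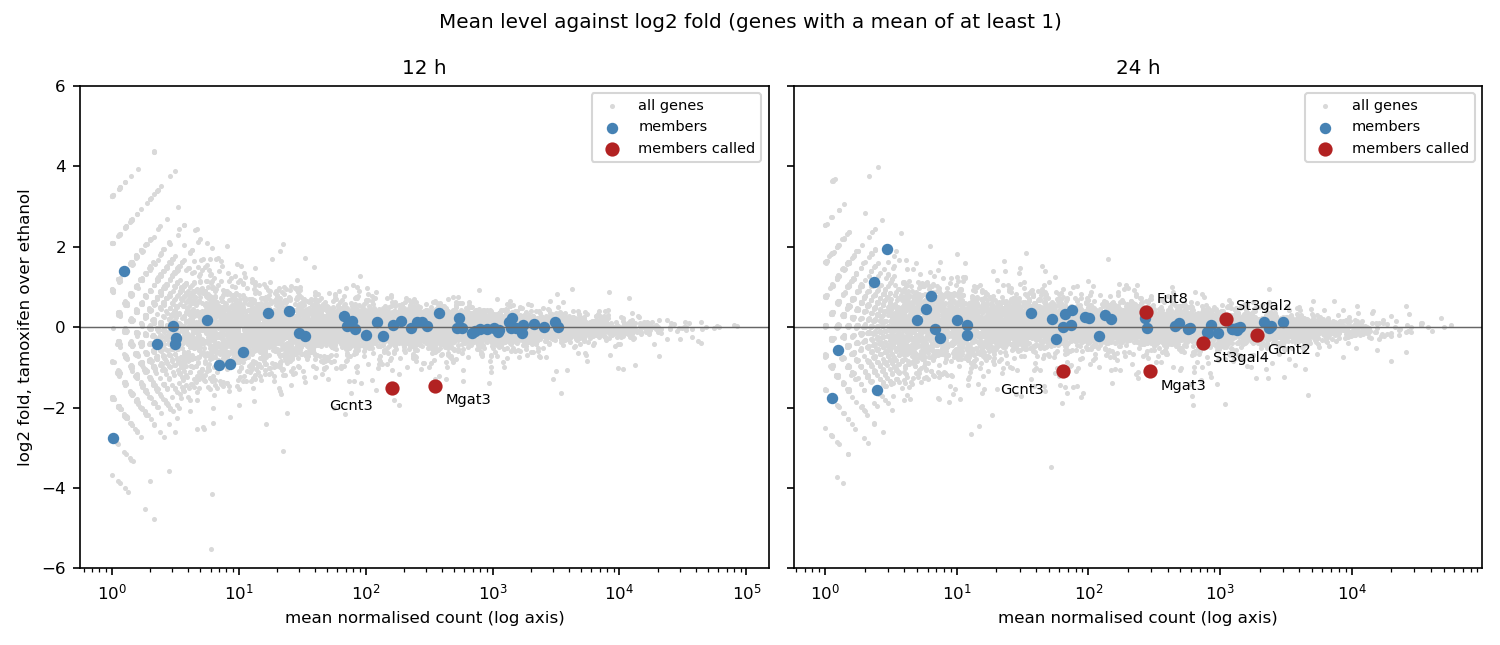
Mean normalised count (log axis) against log2 fold of tamoxifen over ethanol at 12 h (left) and 24 h (right), for genes with a mean of at least 1. Grey points are all genes, blue points members and red points members called at an adjusted p under 0.05; Gcnt3 and Mgat3 lie below the other well expressed members at both times, at -1.50 and -1.46 and then at -1.09 and -1.09.

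At 24 h both falls were called again and 4 further members passed. Gcnt3, Mgat3, St3gal4 and Gcnt2 fell, and Fut8 and St3gal2 rose, the rises and the falls of St3gal4 and Gcnt2 being under 1.5-fold. Of 41 members with an adjusted p, 6 were called (14.6%) against 12.4% of all genes, a share near the background that is no result about the family. Lower calls were 4 (9.76%) against 6.52% of all genes, and higher calls 2 (4.88%) against 5.90%. At an unadjusted p under 0.05 there were 13 of 63 members (20.6%), against 18.0% of all genes. The median log2 fold over members with an adjusted p was 0.01, against -0.00040 over all genes with one.

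Gcnt3 had a lower level at 24 h, with a mean normalised count of 64.0 in the authors' deposited table and implied levels of 87.1 in ethanol and 40.9 in tamoxifen. Its log2 fold was -1.09 (SE 0.19) by the authors' deposited table, and the authors' Wald test gave an adjusted p of 6.01e-07. Mgat3 had a mean normalised count of 295 in the authors' deposited table, implying 402 in ethanol and 189 in tamoxifen. Its log2 fold was -1.09 (SE 0.12) by the authors' deposited table, and the authors' Wald test gave an adjusted p of 8.20e-18. The tamoxifen levels were thus 46.9% (95% interval 36.2% to 60.8%) and 47.0% (40.0% to 55.2%) of ethanol. Among 725 genes called lower with a mean of at least 50, Gcnt3 ranked 29 and Mgat3 ranked 31 by size. Mgat3 made up 5.71% of the summed Mgat level per kb in ethanol and 2.17% in tamoxifen at 12 h, and 4.80% and 2.30% at 24 h. Mgat4b, Mgat2 and Mgat1, which make the branches, held most of that sum.

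Both called sialyltransferases belong to the alpha-2,3 family and moved in opposite directions. St3gal4 (ENSMUSG00000032038.7, chromosome 9, 35046576 to 35119268, reverse strand of GRCm38) had a mean normalised count of 743 at 24 h in the authors' deposited table, implying 844 in ethanol and 642 in tamoxifen. It fell by 0.40 on the log2 scale (SE 0.06) by the authors' deposited table, and the authors' Wald test gave an adjusted p of 3.66e-09. At 12 h its log2 fold was -0.02 (SE 0.17) by the authors' deposited table, with a 95% interval from -0.35 to 0.32. The test between the times gave a difference of -0.38 (SE 0.18), with an unadjusted p of 0.0368 and an adjusted p of 0.9999 in the Wald test over all genes. Its exons share 14.1% of their bases with 4930581F22Rik on the opposite strand, which stood at 0.43 (SE 0.17) at 24 h in the authors' deposited table with a mean of 66.9 normalised counts, and the part of shared reads in the St3gal4 value was not tested.

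St3gal2 (ENSMUSG00000031749.12, chromosome 8, 110919922 to 110972480, forward strand of GRCm38) sialylates the galactose of core 1 O-glycans and of gangliosides. It had a mean normalised count of 1106 at 24 h in the authors' deposited table, implying 1025 in ethanol and 1187 in tamoxifen. It rose by 0.21 (SE 0.06) by the authors' deposited table, and the authors' Wald test gave an adjusted p of 0.00346. At 12 h it had nearly the same value, 0.22 (SE 0.12) by the authors' deposited table, and was not called (adjusted p = 0.867 in the authors' Wald test). In the summed level per kb of this family at 24 h, St3gal4 held 43.1% in ethanol and 33.8% in tamoxifen, and St3gal2 30.4% and 36.2%. The other family members with a mean of 10 or more, St3gal1, St3gal3 and St3gal5, stood at 0.05 (SE 0.09), 0.29 (SE 0.12) and 0.36 (SE 0.26) by the authors' deposited table and were not called.

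Fut8 (ENSMUSG00000021065.16, chromosome 12, 77238125 to 77476338, forward strand of GRCm38) rose at 24 h, from an implied 238 normalised counts in ethanol to 311 in tamoxifen. The log2 fold was 0.38 (SE 0.10) by the authors' deposited table, and the authors' Wald test gave an adjusted p of 0.00398. Its value at 12 h, 0.36, differed from this by 0.02 (SE 0.20). Of the other fucosyltransferases Fut10 and Fut11, the well expressed ones at 24 h, stood at 0.21 (SE 0.12) and -0.30 (SE 0.19) by the authors' deposited table, neither called. Fut4 had means of 8.60 and 6.84 normalised counts in the authors' deposited tables, and Fut1, Fut2 and Fut7 stayed under 2 at both times.

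Gcnt2 (ENSMUSG00000021360.16, chromosome 13, 40859754 to 40960892, forward strand of GRCm38) makes the I branch of polylactosamine chains. It had a mean normalised count of 1911 at 24 h in the authors' deposited table, implying 2039 in ethanol and 1783 in tamoxifen. It fell by 0.19 (SE 0.05) by the authors' deposited table, to 87.5% of ethanol, and the authors' Wald test gave an adjusted p of 0.00138. At 12 h the value lay on the other side of 0, at 0.14 (SE 0.15) by the authors' deposited table. The difference between the times was -0.33 (SE 0.16), with an unadjusted p of 0.0343 and an adjusted p of 0.9999 in the Wald test over all genes. Exons of Gcnt2 share 11.0% of their bases with A730081D07Rik and Gm31683 on the opposite strand, and neither has a row in the tables.

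RefSeq gives Gcnt2 3 start sites, each with its own window of 250 bases upstream, and the tables hold 1 value for all of them, so which start carried the change is not known. Of the 81 members 58 had an entry in the RefSeq promoter table (GRCm38.p6), among them Gcnt2, Fut8 and St3gal4 of the 6 called members. Gcnt3, Mgat3 and St3gal2 are named only. The windows of the upper and middle start of Gcnt2 are shown because they belong to a called member, hold few or no annotated exon bases (14 and 0) and each hold a match to a kind of motif that Krüppel-like factors are known to bind. Capitals mark CACCC, a motif of that family, and CCGCCC, the GC box, read on either strand, so that GGGTG and GGGCGG are the same motifs on the other strand. The windows lie at chr13:40859518-40859767 and chr13:40886508-40886757 on the forward strand.

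Gcnt2 upper start: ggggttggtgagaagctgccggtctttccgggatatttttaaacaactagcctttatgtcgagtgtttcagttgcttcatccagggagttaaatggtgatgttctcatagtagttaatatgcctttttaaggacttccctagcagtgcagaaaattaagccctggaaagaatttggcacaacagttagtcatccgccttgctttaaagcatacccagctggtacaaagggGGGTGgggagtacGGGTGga
Gcnt2 middle start: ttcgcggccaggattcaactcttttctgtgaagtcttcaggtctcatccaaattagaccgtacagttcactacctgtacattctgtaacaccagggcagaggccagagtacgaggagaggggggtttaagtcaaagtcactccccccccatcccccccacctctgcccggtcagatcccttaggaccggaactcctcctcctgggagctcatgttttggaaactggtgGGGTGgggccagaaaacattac

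The upper window holds 2 matches to CACCC and the middle window 1, with 0 matches to CCGCCC in either, and the third window holds 2 and 1. The window of St3gal4 holds 0 matches to CACCC and 3 to CCGCCC, and all of its 250 bases are annotated exon. The 4 windows of Fut8 hold 2, 1, 0 and 0 matches to CACCC and 0, 1, 0 and 0 to CCGCCC. Their annotated exon bases number 250, 175, 0 and 0, and those of the third Gcnt2 window 219. The CACCC motif occurs in 66.7% of the 84 windows of members and in 52.0% of all 32851 windows of the same length. For genes whose mean at 24 h was 50 normalised counts or more, the shares were 61.1% of 36 windows of members and 56.6% of 9904 windows. CCGCCC occurred in 50% of member windows and 32.7% of all, and in 55.6% against 60.6% among expressed genes. A match is a description of the letters and shows no binding.

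**Figure D3:**
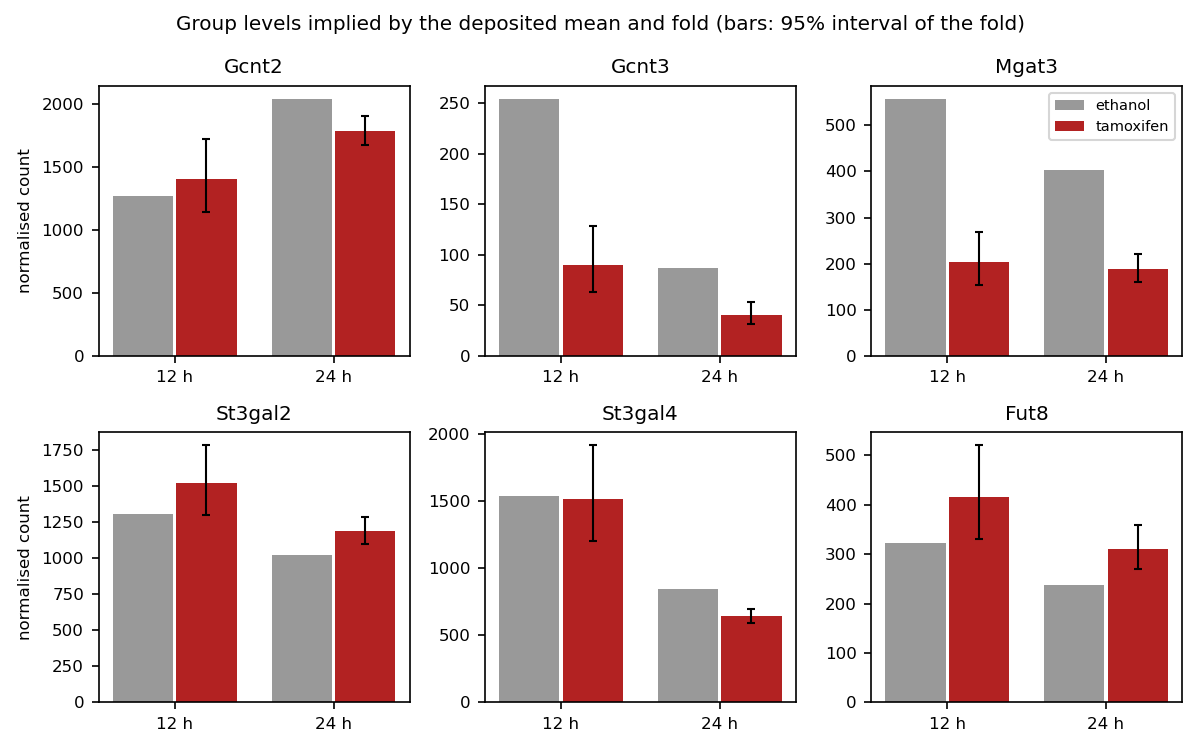
Levels of the 6 called members in ethanol (grey) and tamoxifen (red) at 12 h and 24 h, in normalised counts, as implied by the deposited mean and fold; the bar on each tamoxifen column is the 95% interval of the fold. The tamoxifen columns of Gcnt3 and Mgat3 lie under the ethanol columns at both times, at 89.8 against 254 and 203 against 557 at 12 h, and those of St3gal4 stand at 642 against 844 at 24 h.

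Of 30 members that were not called at 24 h and whose mean was at least 50 normalised counts, 27 had a 95% interval within a fold of 1.5 either way. Among all uncalled genes with such a mean, 95.5% had an interval within that fold. The log2 folds of the 30 members ran from -0.30 (Fut11) to 0.42 (Galnt12) in the authors' deposited table. The highest genes of O-glycan initiation per kb are among the 30 members. Galnt1, Galnt2 and Galnt3 stood at -0.02 (SE 0.04), -0.0040 (SE 0.05) and -0.04 (SE 0.07) by the authors' deposited table. Galnt10, above Galnt2 and Galnt3 per kb at 24 h, stood at 0.14 (SE 0.06) there. The branching genes Mgat1, Mgat2, Mgat4b and Mgat5 stood at -0.04, -0.02, 0.04 and 0.22 in the authors' deposited table, with SEs of 0.05, 0.07, 0.04 and 0.12. Among the 3 alpha-2,6-sialyltransferase genes that reached a mean of 50, St6galnac6 was highest, at 0.32 (SE 0.19), and St6gal1 lowest, at 0.13 (SE 0.08) by the authors' deposited table; St6gal1 is the main one, and its SE was 1.59 times that of genes of similar mean. The 7 beta-1,4-galactosyltransferase genes ran from -0.21 (B4galt4) to 0.26 (B4galt2) in the authors' deposited table.

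Another 7 members had an unadjusted p under 0.05 at 24 h without passing the adjusted threshold. B3gnt3 stood at -0.14 (SE 0.06, adjusted p = 0.0686 in the authors' Wald test) in the authors' deposited table, and at -0.16 at 12 h. B3gnt2 and B4galt1, which work in turn on polylactosamine, stood at -0.14 (SE 0.06) and -0.12 (SE 0.06) by the authors' deposited table. Galnt12, Galnt10 and St3gal3 stood at 0.42 (SE 0.18), 0.14 (SE 0.06) and 0.29 (SE 0.12) by the authors' deposited table. St6galnac2, with a mean normalised count of 2.97, stood at 1.95 (SE 0.93) by the authors' deposited table and has no adjusted p there.

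**Figure D4:**
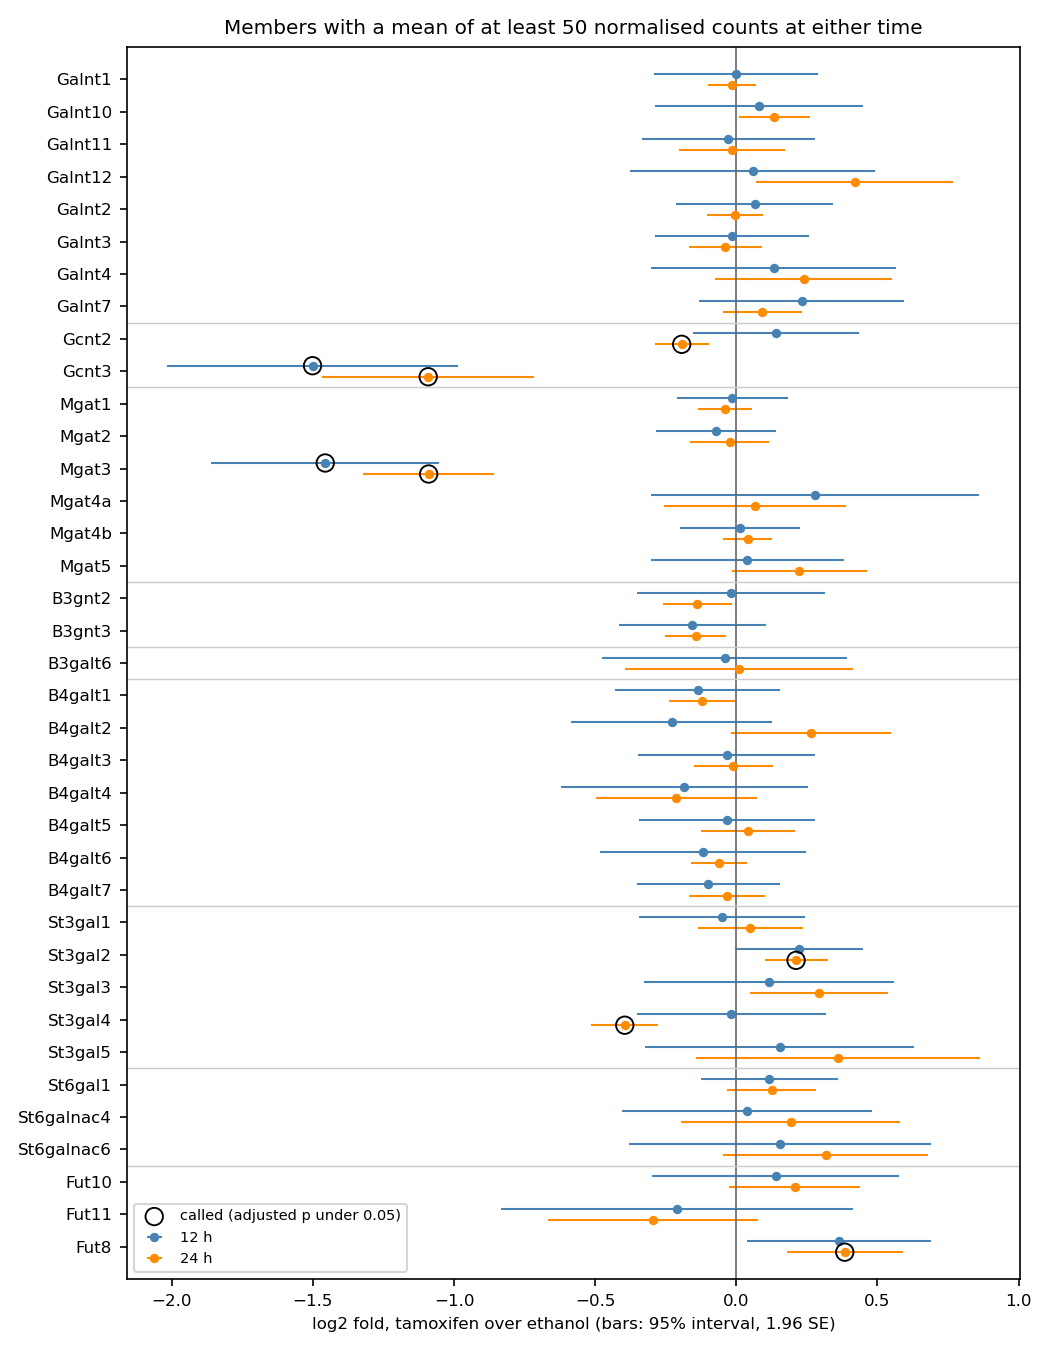
Log2 fold of tamoxifen over ethanol with its 95% interval for the 37 members whose mean was at least 50 normalised counts at either time, at 12 h (blue) and 24 h (orange). Grey lines separate the families and black circles mark calls; the intervals of Gcnt3 and Mgat3 end at or below -0.72 at both times, while most other intervals cross 0.

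The 2 times were then compared for each member. The test of the difference called 0 of 57 members with a p at both times, and 2 of 14981 genes (0.0134%), with the Wald test on the difference of folds and Benjamini-Hochberg adjustment. At an unadjusted p under 0.05 there were 4 members (7.02%) against 1.64% of all genes. They were Gcnt2 and St3gal4, described above, B4galt2, and Fut1, whose means were under 1 normalised count. B4galt2 stood at -0.23 (SE 0.18) at 12 h and 0.26 (SE 0.14) at 24 h in the authors' deposited tables, called at neither. The log2 folds of Gcnt3 and Mgat3 were closer to 0 at 24 h by 0.41 (SE 0.33) and 0.37 (SE 0.24), differences with unadjusted p of 0.207 and 0.123 in the Wald test over all genes. The folds had the same sign at both times in 44 of 57 members (77.2%), beside 65.3% of 14981 genes.

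The SE of a fold bears on what each time can show. Over all genes with a mean of at least 50 the median SE was 0.161 at 12 h and 0.0783 at 24 h. St3gal2 and Fut8 had similar folds at both times and were called at 24 h, where their SEs were 0.06 and 0.10 against 0.12 and 0.17 at 12 h. Their absence from the 12 h calls does not show that they did not change then.

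Ethanol levels were also set side by side for the times. The tables were normalised separately and came from separate libraries, so these values are set side by side as shares of each table's total, with no test. Of 35 members with a mean of at least 50 at both times, the ethanol level of Gcnt3 went from 18.3 to 7.35 counts in each M of its table, 40.2% of its 12 h level. St6galnac6 and Galnt12 went to 38.6% and 46.6%, and St3gal4 to 64.3%. Gcnt2 and B3gnt2 stood at 188% and 189% of their 12 h levels, and Mgat3 at 84.6%. The median log2 ratio was -0.10 over the members and -0.06 over 9861 genes, for which the middle 90% ran from -1.25 to 1.17.

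Genes that feed or receive these chains were described from pathway lists. In the 9 lists 132 genes had an adjusted p at 12 h and 1 was called (0.758%, against 0.943% of all genes), Msln, at -1.05 (SE 0.11) by the authors' deposited table. At 24 h 21 of 120 such genes were called (17.5%, against 12.4% of all genes), 10 lower (8.33% against 6.52%) and 11 higher (9.17% against 5.90%). The lists are small, and no test set them against other genes. Of 8 core 1 and chain partner genes with an adjusted p, 2 fell and 1 rose at 24 h (37.5% called), B3galnt2 at -0.67 (SE 0.10), B4galnt2 at -0.37 (SE 0.13) and Ggta1, which makes alpha-galactose, at 0.26 (SE 0.05) by the authors' deposited table. Of 23 genes of nucleotide sugar synthesis with an adjusted p, 2 fell and 1 rose (13.0% called, near the 12.4% of all genes). Uap1l1 stood at -0.41 (SE 0.05), Pgm3, an enzyme on the way to UDP-GlcNAc, at 0.33 (SE 0.08) and Gfpt1, the entry enzyme of that path, at -0.20 (SE 0.07) by the authors' deposited table. The lists' median log2 folds at 24 h were -0.01 and 0.0024, beside -0.00040 for all genes tested.

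The list of Golgi transporters holds nucleotide sugar transporter genes of the Slc35 family, and also Slc39a9 and Tmem165, which are outside that family. Of its 13 genes 1 was called at 24 h (7.69%, against 12.4% of all genes). It was Slc35c2, which fell, at -0.16 (SE 0.06) by the authors' deposited table. Among 28 genes of N-glycan precursor synthesis and transfer 3 rose and 1 fell (14.3% called, near the 12.4% of all genes). Both catalytic subunits of oligosaccharyltransferase were among them, Stt3a at 0.15 (SE 0.04) and Stt3b at -0.15 (SE 0.04), beside Magt1 at 0.21 (SE 0.05) by the authors' deposited table. Of 17 trimming genes 2 were called (11.8%, near the 12.4% of all genes). Both rose, the Golgi mannosidase genes Man2a1 at 0.35 (SE 0.06) and Man2a2 at 0.24 (SE 0.06) by the authors' deposited table. Of 14 sialidase and glycosidase genes with an adjusted p, 3 were called (21.4%, against 12.4% of all genes). All 3 rose, among them Manba at 0.27 (SE 0.07) and Glb1 at 0.21 (SE 0.08) by the authors' deposited table. The median log2 folds of these 4 lists at 24 h were -0.05, 0.02, 0.02 and 0.09. No gene was called among 3 sulfotransferase genes with an adjusted p, none of which had an unadjusted p under 0.05 in the authors' Wald test.

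Of 7 mucins and mucin-like carriers with an adjusted p at 24 h, 1 fell and 1 rose (28.6% called, against 12.4% of all genes), the surface glycoprotein gene Msln at -1.69 (SE 0.06) and Cd24a at 0.17 (SE 0.05) by the authors' deposited table. Of 7 galectin and sialic acid reader genes with an adjusted p, 3 were called (42.9%, against 12.4% of all genes). All 3 fell, and the list median was -0.23. Lgals3, a lectin that binds N-acetyllactosamine, stood at -0.50 (SE 0.05), Lgals8 at -0.23 (SE 0.05) and Lgals3bp, a secreted glycoprotein that binds galectins, at -0.34 (SE 0.12) by the authors' deposited table. At 12 h Lgals3 stood at -0.63 (SE 0.18) by the authors' deposited table, and the authors' Wald test gave an adjusted p of 0.0556.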

How the data were processed

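RNA was sequenced single-end from 15 libraries. The submitters' processing notes name HISAT2, DESeq2 and mm10 without versions; the sources used here do not give the counting tool, annotation or formula. Per the file headers, the deposited tables hold for each gene a mean normalised count (a signal), the log2 fold with its standard error and Wald score, a p-value and an adjusted p-value, 1 table per time, normalised separately. The score equals fold over standard error. A gene was called where the adjusted p was under 0.05, and blank adjusted p-values stayed blank. Single reads fall on 7 distinct lowest means at 12 h, 3 with negative and 4 with positive folds, as tamoxifen over ethanol requires; at 24 h the split of 4 and 4 does not check the direction, which was taken to be the same.

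Group levels were solved from the mean and the fold, weighting libraries equally. Times were compared by a Wald test on the change in fold, adjusted over all genes with a p at both times, after a check on simulated data. Exon unions came from GENCODE M21 (GRCm38, the assembly mm10 names). Each standard error was set against a running median (window of 201 genes ordered by mean), and 95% intervals are 1.96 standard errors to each side. Named with values were all called members, the 10 highest per kb and the extremes of a family; other members named were chosen after their values were seen. Of the pathway lists, up to 3 called genes per time were named. Some genes of the marker and pathway lists are not reported here. The members and lists were chosen with earlier results of these data known. Tools were matplotlib 3.10.9, scipy 1.17.1, pandas 2.3.3, numpy 2.4.6 and Python 3.11.15. The alternatives tried were other adjustments, thresholds, a minimum fold, centring, raised standard errors and length per longest transcript.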

Additional observations from a re-analysis of the deposited data

How the results depend on the processing

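The calls of members kept their count within 1.5 times under adjustment over all genes with a p, adjustment over genes with a mean of at least 50, thresholds of 0.1 and 0.01, folds centred on the median, and standard errors raised to the running median. Gcnt3 and Mgat3 were called at both times under each of these, and all 6 calls at 24 h were shared, with B3gnt3 added at a threshold of 0.1. The setting that changed the 24 h counts by more than 1.5 times was a fold of at least 1.5. It left 2 members, 2 lower (Gcnt3 and Mgat3) and 0 higher, from 6, 4 and 2, by its own construction. Over all genes the same setting took the 24 h calls from 1447 to 277, a threshold of 0.01 took them to 854, and at 12 h the latter took 123 to 79. With levels per kb of the longest transcript 9 of the 10 highest members were shared at each time. Adjustment over all genes with a p took the called genes of the pathway lists from 21 to 15 at 24 h and left 1 at 12 h. The same adjustment took the calls over all genes from 1447 to 1307 at 24 h and from 123 to 114 at 12 h. Members that differ between times numbered 0 under every setting run. The share of members with the same sign at both times was 82.9% among those with a mean of at least 50 at both times. Among all genes with such means it was 68.9% of 9860. No paired analysis was possible because the files hold no value per library, and leaving out replicates was not run for the same reason. Members with a mean under 1.84 at 12 h or 7.34 at 24 h have no adjusted p and could not be called.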
